A study of Mus musculus with 4 samples.

Results

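The cohesin genes described here were 4 meiotic subunits, Rec8, Rad21l, Smc1b and Stag3, and 6 general cohesin genes, Rad21, Smc3, Nipbl, Pds5a, Pds5b and Stag1. They were chosen by name and matched by symbol to Ensembl gene identifiers, which gave 10 of the 37718 genes with a count of their own. Their 273 introns, of 207562 in the whole series, 359 exon segments, 300 annotated exon-exon junctions and 9 unannotated junctions were all read in each sample. RNA came from testis cells of mice at 20 days post partum (dpp), from 2 Tdrd6+/- samples and 2 Tdrd6-/- samples, each a pool of at least 4 animals. In both genotypes the cells were collected with magnetic beads through human CD4 (hCD4), which was expressed from the endogenous Tdrd6 promoter, so the sort gave diplotene spermatocytes together with other germ cells that use this promoter. TDRD6 is a germ line Tudor domain protein. The heterozygous control kept a functional Tdrd6 allele, which the Tdrd6-/- cells lacked. Nothing in the sources says more about how the pools within a genotype were kept apart, so the p-values measure the spread between these samples.

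Cohesin is a ring built of a pair of SMC proteins, closed by a kleisin subunit and bound by a STAG protein. It holds sister chromatids together and anchors chromatin loops. In meiosis the kleisin RAD21 gives way in part to REC8 and RAD21L, SMC1A to SMC1B, and STAG1 and STAG2 to STAG3, and the rings that contain them build the chromosome axis to which the synaptonemal complex attaches. SMC3 is shared by mitotic and meiotic rings. NIPBL loads cohesin on DNA with its partner MAU2, PDS5A and PDS5B bind the loaded ring and regulate its release and protection, and WAPL opens it.

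Gene counts summed to between 26454326 and 31388750 per sample, and intron counts came to 52.7 and 41.9 per 100 gene counts in Tdrd6+/- against 42.5 and 30.6 in Tdrd6-/-. The members took between 0.251% and 0.298% of the gene counts. Tdrd6 itself had 1268 and 1412 CPM (counts per 1000000 after TMM scaling to a common library size) in Tdrd6+/- against 11.4 and 12.5 CPM in Tdrd6-/-, as the labels require. The spermatocyte markers Ldhc, Hspa2, Sycp3 and Pgk2 were each above 190 CPM in all 4 samples, and of the 7 spermatocyte genes only Tdrd6 and Piwil1 (log2 fold change -0.44) passed the test, both lower in Tdrd6-/-. The 8 spermatid genes summed to 11.8 and 15.4 CPM in Tdrd6+/- and to 25.7 and 22.9 CPM in Tdrd6-/-, and 2 of the 4 that could be tested, Spaca1 and Acrv1, were higher in Tdrd6-/-, while Prm1, Prm2, Tnp1 and Tnp2 stayed under 0.5 CPM in every sample. Sums over the 8 genes of earlier germ cells (204 to 243 CPM), the 6 Sertoli cell genes (37.9 to 48.5 CPM) and the 4 Leydig cell genes with a count of their own (7.11 to 9.20 CPM) overlapped between the genotypes, and none of these genes passed the test. Dazl (86.2 to 115 CPM) and Spo11 (101 to 116 CPM) made up most of the sum for earlier germ cells. Of those 8 genes, Stra8, Kit, Dmrt1 and Sohlh1 had both Tdrd6-/- samples above both Tdrd6+/- samples. The other 4 overlapped and 0 lay below. Of the 19905 genes with at least 10 counts, 19.6% had both Tdrd6-/- samples above in this way. Stra8 came closest to a call (log2 fold change 0.92, edgeR adjusted p = 0.109). In bulk RNA, fewer cells of a type and less RNA per cell cannot be told apart. The part of the spermatid genes and of the earlier germ cell genes in the results below was not tested.

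The member RNAs spanned more than 2 orders of magnitude. To compare genes, CPM was divided by the length of all annotated exons of the gene. Stag3, the meiotic STAG subunit, stood highest at 178 ± 7.99 CPM per kb (SD, n = 4 samples), and 0.983% of the 18827 ranked genes lay above it. Nipbl, the loader, followed with 114 ± 24.7 CPM per kb, and Smc1b, the meiotic SMC1, with 76.0 ± 13.4. The samples of Nipbl (82.7 to 143 CPM per kb) and Smc1b (63.8 to 93.8) overlapped, and those of Stag3 lay above both. These 3 genes together held 89.8% ± 1.06 (SD, n = 4) of the summed level of the 10 members.

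A wide gap separated them from the remaining general genes. Pds5b reached 10.9 ± 3.41 CPM per kb and Stag1 10.1 ± 0.842, with overlapping samples. Rad21 (6.62 ± 1.69), Smc3 (6.05 ± 0.802) and Pds5a (5.46 ± 0.297) followed, and the samples of these 3 overlapped too. The meiotic kleisins came last. Rec8 had 1.98 ± 0.573 CPM per kb and Rad21l 0.766 ± 0.272, and no sample of Rad21l reached the lowest of Rec8. The order of the middle genes depended on the exon length used. Per kb of the longest transcript the mean level was 19.2 for Stag1, 14.4 for Pds5b and 11.8 for Pds5a, while that of Rad21 was 7.08 and that of Smc3 6.91.

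**Figure D1:**
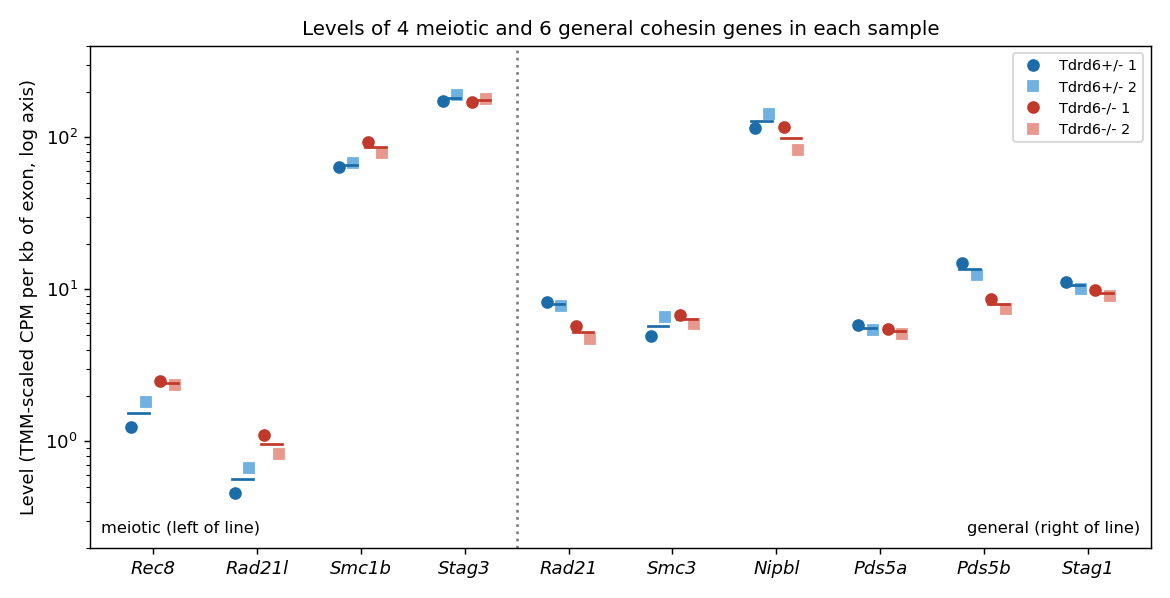
Levels of the 10 cohesin genes in each sample, in TMM-scaled CPM per kb of annotated exon on a log axis, with the 4 meiotic genes left of the dotted line and the mean of each genotype as a short line. Stag3, Nipbl and Smc1b stand above 60 in every sample, and the meiotic kleisins Rec8 and Rad21l are at or under 2.51.

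Within samples, the meiotic paralogue exceeded its general counterpart for the SMC1 and STAG positions, and the reverse held for the kleisin. Smc1b stood 73.2 ± 7.38 times above Smc1a per kb of exon (SD, n = 4 samples). Stag3 stood 17.8 ± 1.77 times above Stag1 and 126 ± 22.1 times above Stag2, both of which encode somatic STAG subunits. Without a length correction these ratios were 51.3, 8.67 and 87.3. Smc1a and Stag2 lie on the X chromosome and had 1.05 and 1.45 CPM per kb on average. Rec8 was at 0.331 ± 0.165 of the level of Rad21, and Rad21l at 0.128 ± 0.0671.

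The kleisin ratios did not overlap between the genotypes, with 2 samples in each. The Rec8 to Rad21 ratio was 0.151 and 0.233 in Tdrd6+/- against 0.439 and 0.499 in Tdrd6-/-, which was 2.50-fold higher. The Rad21l to Rad21 ratio was 0.0555 and 0.0865 against 0.193 and 0.176, which was 2.66-fold higher. The Tdrd6-/- samples lay above both Tdrd6+/- samples in each. The 2 ratios share the Rad21 count, so they are not separate evidence. The Smc1b to Smc1a ratio did not separate the genotypes (79.0 and 67.8 against 65.8 and 80.0), nor did Stag3 to Stag1 (15.6 and 18.7 against 17.3 and 19.6). Stag3 to Stag2 was 152 and 129 in Tdrd6+/- and 98.1 and 125 in Tdrd6-/-. It did not overlap either, but was lower in Tdrd6-/- (difference of -0.34 in the mean log2 ratio). The summed level of the 4 meiotic genes was 1.496 and 1.40 times that of the 6 general genes in Tdrd6+/- and 1.76 and 2.26 times in Tdrd6-/-, a difference of 0.46 in the mean log2 ratio. The exact two-sided permutation test gave p = 0.33 for the ratios that did not overlap, which is the smallest p that 2 samples against 2 allow, and 0.5 after Benjamini-Hochberg adjustment over the 6 ratios.

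**Figure D2:**
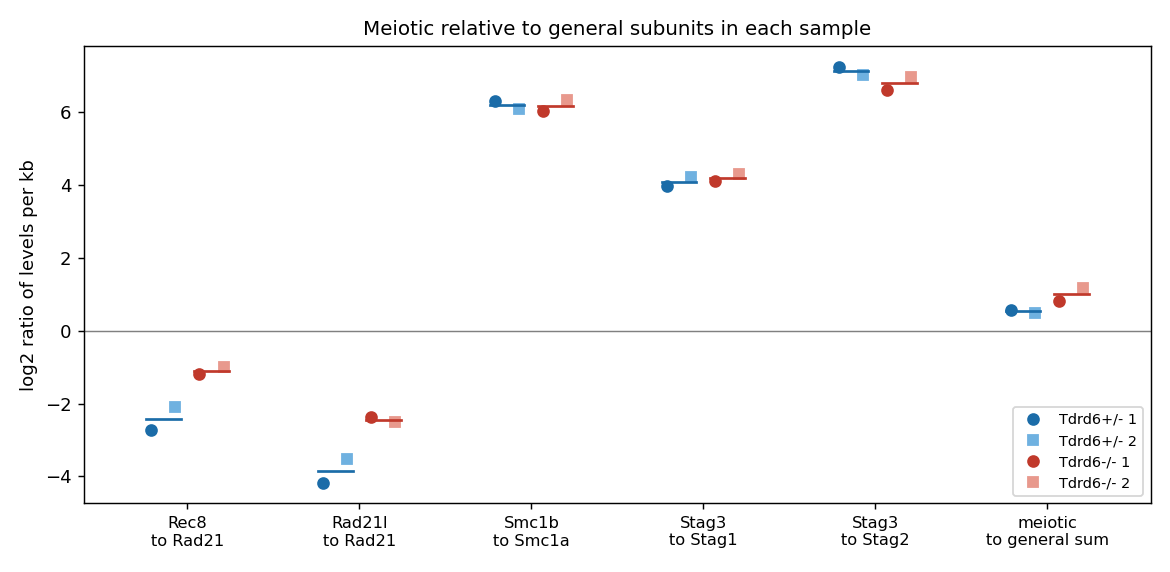
log2 ratio of meiotic to general subunit levels per kb of exon in each sample, with the mean of each genotype as a short line. The Rec8 to Rad21 ratio averages -2.41 in Tdrd6+/- and -1.10 in Tdrd6-/-, whereas Smc1b to Smc1a averages 6.19 and 6.18.

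Between the genotypes, 2 of the 10 members passed the gene test (edgeR's quasi-likelihood test, Benjamini-Hochberg adjustment over 16555 genes, false discovery rate 0.1), and both were general genes that were lower in Tdrd6-/-. Of all genes tested, 4.8% were called in either direction, 3.78% lower and 1.02% higher. None of the 4 meiotic genes was called, but at an unadjusted p under 0.05, which 14% of all genes reached, stood 6 of the 10 members. The median log2 fold change (Tdrd6-/- relative to Tdrd6+/-) was 0.53 over the 4 meiotic and -0.27 over the 6 general genes, beside 0.01 over all genes tested.

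Pds5b, whose product binds the loaded ring, showed the smallest p. The gene (ENSMUSG00000034021) is on the plus strand of mm10 chromosome 5, between 150673739 and 150810690. Its counts were 3822 and 3414 in Tdrd6+/- against 2699 and 2341 in Tdrd6-/-, or 146 and 123 CPM against 85.3 and 73.1 CPM. Both Tdrd6-/- samples lay under both Tdrd6+/- samples, with a log2 fold change of -0.76 (SE 0.141, edgeR adjusted p = 0.00261), a fall of 41.0%. The call was lost without the second Tdrd6-/- sample (log2 fold change -0.64, edgeR adjusted p = 0.108).

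Rad21, the mitotic kleisin, fell as well. The gene (ENSMUSG00000022314) is on the minus strand of chromosome 15, between 51962240 and 51991747. It had 919 and 914 counts in Tdrd6+/- and 766 and 638 in Tdrd6-/-, or 35.1 and 32.8 CPM against 24.2 and 19.9 CPM. The samples did not overlap and the log2 fold change was -0.62 (SE 0.167, edgeR adjusted p = 0.0421), a fall of 35.0%. Without the second Tdrd6-/- sample the edgeR adjusted p was 0.615, and without the first Tdrd6+/- sample 0.135. These 2 samples had the lowest and the highest share of intronic counts, and the part of that share in the result was not tested.

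Nipbl, the most variable of the abundant members, was not called. It had 1082 and 1349 CPM in Tdrd6+/- and 1098 and 780 CPM in Tdrd6-/-, so that the genotypes overlapped and only the second Tdrd6-/- sample lay under both controls (log2 fold change -0.37, SE 0.155, edgeR adjusted p = 0.254). Without the first Tdrd6-/- sample the log2 fold change was -0.64 and was called (edgeR adjusted p = 0.0471).

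The remaining general genes were not called. Stag1 had 131 and 119 CPM against 117 and 107 CPM, which did not overlap. Pds5a had 113 and 104 CPM against 106 and 98.7 CPM. Smc3 had 27.5 and 36.2 CPM against 37.4 and 33.0 CPM. Their log2 fold changes were -0.16, -0.08 and 0.14, and their edgeR adjusted p-values lay between 0.666 and 0.860.

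Among the meiotic genes, 3 of 4 had both Tdrd6-/- samples above both Tdrd6+/- samples without passing the test. Samples were separated in this direction for 19.6% of the 19905 genes with at least 10 counts, and in either direction for 42.2%. Among the 6 general genes, 3 had both Tdrd6-/- samples below both Tdrd6+/- samples, as did 22.5% of those 19905 genes. Smc1b had 258 and 275 CPM in Tdrd6+/- and 380 and 317 CPM in Tdrd6-/- (log2 fold change 0.39, SE 0.133, edgeR adjusted p = 0.136). DESeq2 called it (adjusted p = 0.0938). Rec8, at 96 and 148 counts against 233 and 221, had 3.67 and 5.31 CPM against 7.37 and 6.91 CPM (log2 fold change 0.67, SE 0.248, edgeR adjusted p = 0.184). Without the second Tdrd6+/- sample Rec8 was called, with a log2 fold change of 0.96 and an edgeR adjusted p of 0.0767.

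Rad21l rested on few fragments. It had 20 and 31 counts in Tdrd6+/- and 58 and 44 in Tdrd6-/-, with a log2 fold change of 0.77 and a wide SE of 0.369 (edgeR adjusted p = 0.356). Stag3, at 26088 to 32814 counts, was not called. Its 996 and 1086 CPM in Tdrd6+/- and 982 and 1025 CPM in Tdrd6-/- overlapped (log2 fold change -0.05, SE 0.129, edgeR adjusted p = 0.913).

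**Figure D3:**
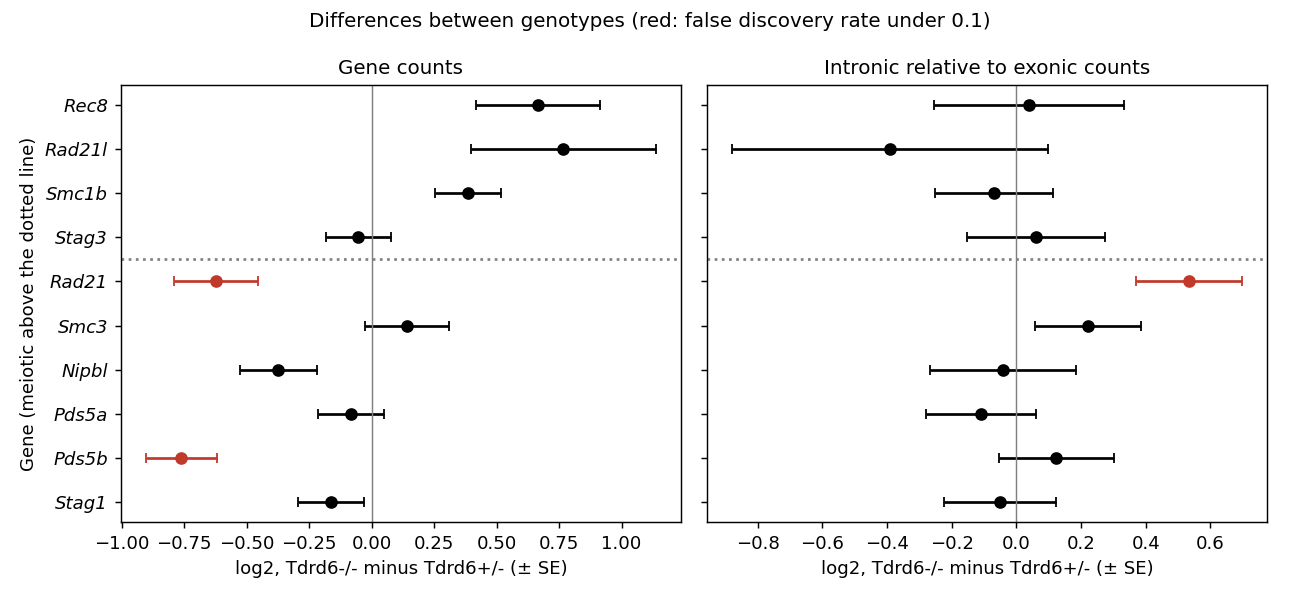
Difference between the genotypes for each cohesin gene as log2 (Tdrd6-/- minus Tdrd6+/-) with its SE, for gene counts on the left and for intronic relative to exonic counts on the right, with calls at a false discovery rate of 0.1 in red. Pds5b (-0.76) and Rad21 (-0.62) are called on the left, and Rad21 (0.53) alone is called on the right.

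The same test called 1 of 20 further cohesin regulators and partners. It was Ctcf, the DNA-binding protein at which cohesin loops stop, with 57.5 and 53.3 CPM in Tdrd6+/- and 34.6 and 30.4 CPM in Tdrd6-/- (log2 fold change -0.77, SE 0.151, edgeR adjusted p = 0.00451). It too was not called without the second Tdrd6-/- sample (edgeR adjusted p = 0.153). Smc1a (log2 fold change 0.41), Stag2 (0.29), the loader partner Mau2 (0.15) and the release factor Wapl (-0.13) were not called. The median log2 fold change of the 20 was 0.09. Of 9 axis and synaptonemal complex genes, Sycp1, the transverse filament protein, rose (161 and 102 CPM against 185 and 213 CPM, log2 fold change 0.60, edgeR adjusted p = 0.0467), and Sycp2, an axis protein, lay at the threshold (log2 fold change 0.44, edgeR adjusted p = 0.099973). Sycp1 was not called without the second Tdrd6+/- sample (log2 fold change 0.31, edgeR adjusted p = 0.257) or without the second Tdrd6-/- sample (0.50, edgeR adjusted p = 0.293), and its log2 fold change was 0.98 without the first Tdrd6+/- sample. All 9 had a positive log2 fold change, with a median of 0.25, where 51.7% of all genes tested were positive and 1.02% were called higher. The smallest was 0.01, for Hormad1, and in 5 of the 9 the samples of the genotypes overlapped.

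Intronic counts were compared with exonic counts next, which asks whether unspliced RNA of a member differs. Per base, introns of the members had a density between 1.33% (Smc1b, SD 0.199, n = 4 samples) and 22.1% (Rec8, SD 2.52) of that of their exons. Nipbl (2.22% ± 0.507), Stag1 (2.79% ± 0.604), Rad21l (3.36% ± 1.42) and Stag3 (3.67% ± 0.541) were low. Pds5b stood at 8.12% ± 1.39 and Smc3 at 10.9% ± 0.738. Rad21 (16.8% ± 2.29) and Pds5a (16.9% ± 3.58) were high. The densities used all exons annotated in GENCODE M21. For Pds5a these came to 19335 bp, beside 8934 bp in its longest transcript. A shorter exon length lowers the density, so the place of Pds5a among the members depends on the length used. The features of Rec8, Pds5b and Stag1 could not be placed on that annotation, so their densities are uncertain too. Intron length differs widely among the members, from 4424 bp in Rec8 to 349797 bp in Stag1, and 9 of the 10 densities were lower in the mean of the Tdrd6-/- samples, in which fewer counts fell on introns as a whole.

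**Figure D4:**
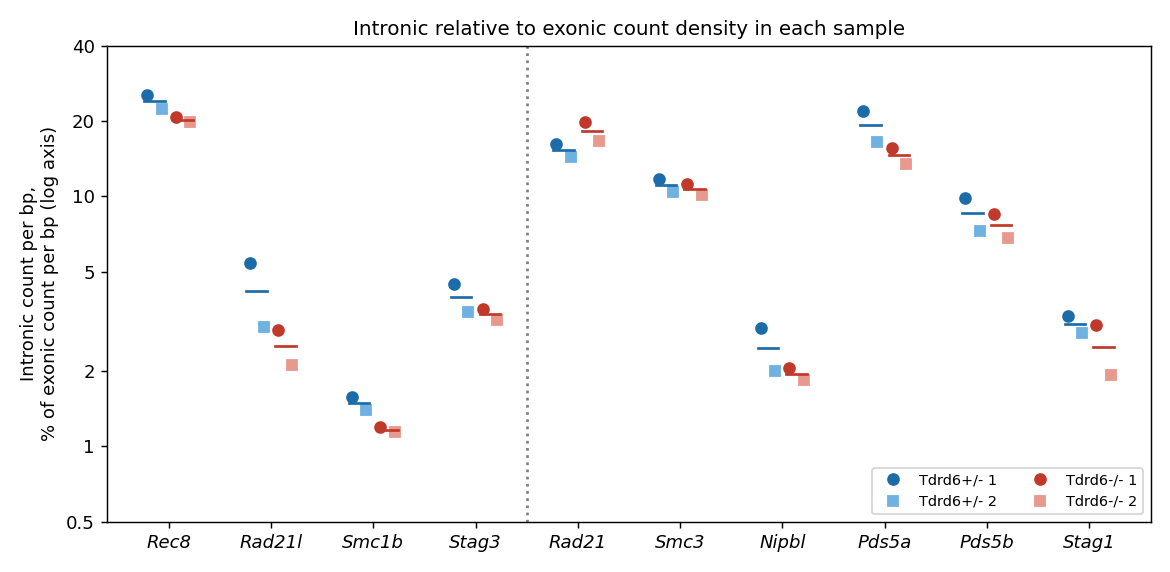
Intronic count per base as a percentage of exonic count per base, on a log axis, for each cohesin gene and sample, with the mean of each genotype as a short line. Rad21 is the only member whose Tdrd6-/- mean (18.3%) lies above its Tdrd6+/- mean (15.3%).

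After intronic and exonic counts were scaled separately, 1 of the 10 members was called, beside 2.4% of the 15190 genes tested (edgeR, false discovery rate 0.1) and 0.77% called higher. This was Rad21, with 96.8 and 85.6 intronic per 100 exonic counts in Tdrd6+/- and 119 and 99.7 in Tdrd6-/-. Its intronic counts were 890 and 782 in Tdrd6+/- and 908 and 636 in Tdrd6-/-, which overlapped, while the exonic count fell. Per 1000000 intron counts the intronic level was slightly higher in both Tdrd6-/- samples (63.8 ± 0.0446 against 68.2 ± 2.74, SD, n = 2 each). The intron total was 52.7 and 41.9 per 100 gene counts in Tdrd6+/- and 42.5 and 30.6 in Tdrd6-/-, so this rise depends on the scaling. The log2 change of the ratio was 0.53 (SE 0.163, edgeR adjusted p = 0.0846). It was not called with DESeq2 (adjusted p = 0.156), with the exonic scaling applied to both (log2 0.26), or after leaving out either Tdrd6+/- sample or the second Tdrd6-/- sample. The exonic scaling moved the median of all genes from 0.04 to -0.24.

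For Pds5b, intronic and exonic counts were lower together. Intronic counts were 4888 and 3201 in Tdrd6+/- and 2966 and 2060 in Tdrd6-/-, or 306 ± 63.3 and 222 ± 10.2 per 1000000 intron counts (SD, n = 2 each), and the ratio to exonic counts had a log2 change of 0.12 (SE 0.177, edgeR adjusted p = 0.852). For Smc1b, exonic CPM was higher, and so was the intronic level, at 128 ± 12.5 and 181 ± 11.1 per 1000000 intron counts. As for Rad21, this intronic rise is relative to the total of intron counts. The log2 change of the Smc1b ratio was -0.07 (SE 0.182). Nipbl had 932 ± 11.05 and 790 ± 79.6 per 1000000 intron counts and a log2 change of the ratio of -0.04 (SE 0.225). Outside the members, Meikin, a meiosis-specific kinetochore protein that protects REC8 cohesin, had a lower ratio in Tdrd6-/- (log2 -0.67, edgeR adjusted p = 0.0193), the only call among the 19 further cohesin genes that could be tested. Without the first Tdrd6+/- sample it was not called (log2 -0.55, edgeR adjusted p = 0.540).

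Of the members, Nipbl gave the most detail on splicing. Its single annotated transcript is on the minus strand of mm10 chromosome 15, between 8290617 and 8444463, and has 47 exons. The intron numbers of the deposited counts follow the chromosome, so intron 46 is the first and intron 1 the last in the transcript. The sequences of 4 exon-exon junctions, read from the GENCODE M21 transcript of GRCm38, are shown because the values below turn on them. Each runs 5′ to 3′ over the end of the upstream exon in lower case and the start of the downstream exon in capitals.
Exon 1 to exon 2, over intron 46 (chr15:8374103-8444124, minus strand): cgccgattcgcccagAGTTTGGGAAATGGA
Exon 2 to exon 3, over intron 45 (chr15:8372197-8373959, minus strand): ctagtcttacggaccTCCTGAACCAGCTGC
Exon 13 to exon 14, over intron 34 (chr15:8338599-8338680, minus strand): agctaacgcccgaagAAATGATGGATTCTT
Exon 46 to exon 47, over intron 1 (chr15:8291591-8292136, minus strand): ggaggcacttcagggTCATTGAGAAGGTCA
Exon 1 holds 5′ UTR alone, the start codon lies in exon 2 and the stop codon in exon 47.

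The junction from exon 1 to exon 2 was rarely seen in the sorted cells. It had 25 and 42 counts in Tdrd6+/- and 33 and 18 in Tdrd6-/-, whereas the next junction, from exon 2 to exon 3, had 309 and 471 against 426 and 314. The first junction thus stood at 7.62% ± 1.35 (SD, n = 4 samples) of the second, and every other annotated Nipbl junction had at least 170 counts in each sample. Over all samples it had 6.93% of the median count of the annotated Nipbl junctions. The annotated junction nearest the 5′ end stood at 0.797% of the median in Stag3 and 9.44% in Pds5a, and between 47.4% and 109% in Rad21, Smc3, Smc1b and Rad21l. Stag3 has 9 annotated transcripts, so its junction nearest the 5′ end can belong to a rare one and is not directly comparable. The Rad21l value rests on 12 counts over all samples. An unannotated junction of Nipbl, whose position the deposited counts do not give, had 195 and 303 counts in Tdrd6+/- and 285 and 222 in Tdrd6-/-, or 66.3% ± 3.36 of the junction from exon 2 to exon 3. It was 8.996 ± 2.30 times as frequent as the annotated first junction. Its usage did not separate the genotypes (log2 0.19, SE 0.162, DESeq2 adjusted p = 1). The other 3 unannotated Nipbl junctions had between 5 and 32 counts in a sample. The 3 unannotated junctions of Stag3 had between 7 and 44, and the 2 of Pds5a between 22 and 76.

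**Figure D5:**
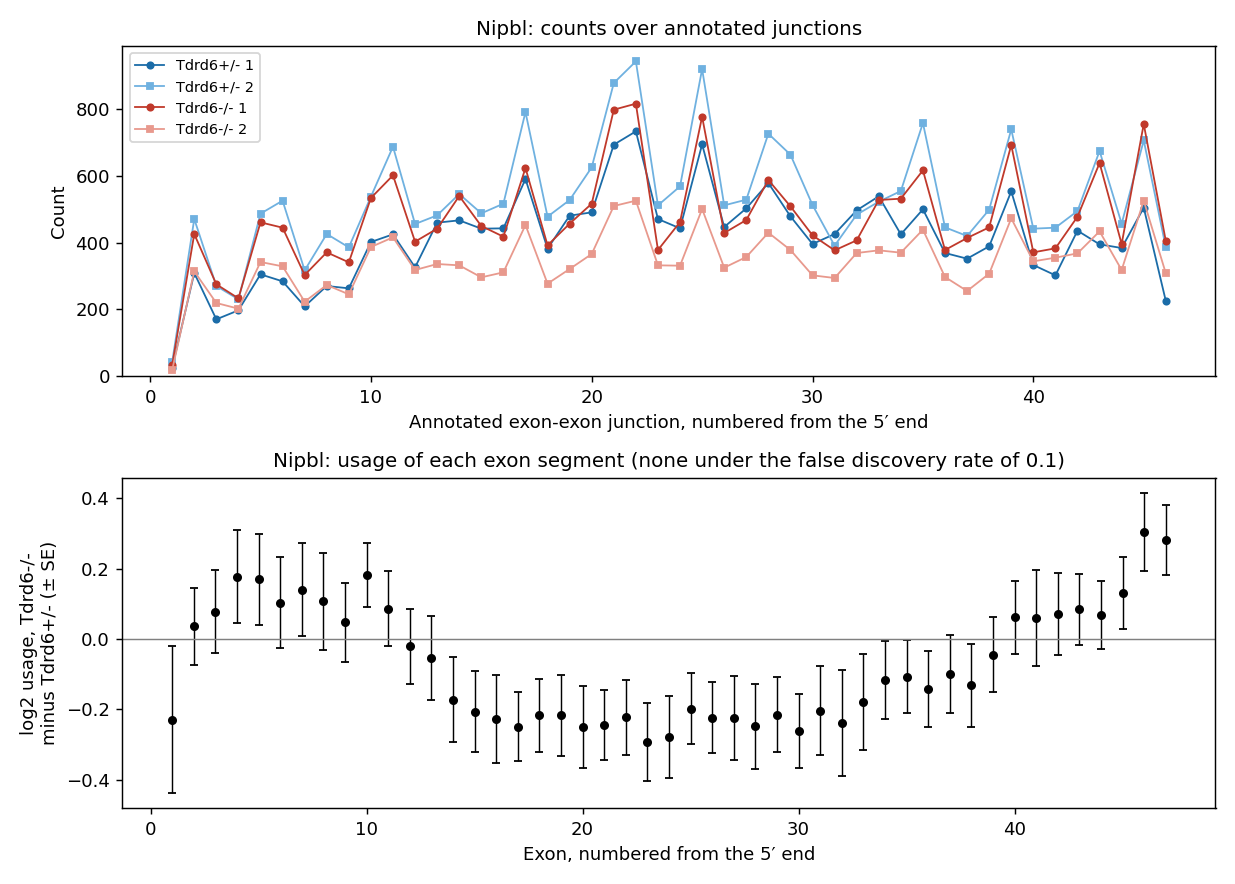
Nipbl in transcript order from the 5′ end, with the count over each of the 46 annotated junctions in every sample above, and the log2 difference in usage of each of the 47 exons (Tdrd6-/- minus Tdrd6+/-) with its SE below. The first junction has at most 42 counts in any sample, and none of the exons passed the false discovery rate of 0.1.

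Differential usage of introns, in which each intron is set against the other introns of its gene, called 0 of the members' introns. Of 258 introns with at least 10 counts, 88 passed the filter on the mean and were tested (likelihood ratio test in DESeq2, false discovery rate 0.1), where 1.94% of all 28903 introns tested were called. At an unadjusted p under 0.05 stood 8 of these 88, and 10.5% of all introns tested. None of the introns of Rec8 and Rad21l passed the filter on the mean. In edgeR's usage test 0 of the 258 were called, with 9 under an unadjusted p of 0.05. That test called only 2 of 127248 introns in the whole series, with 4164 under that p, so its 0 among the members says little.

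The smallest p among the members belonged to the last intron of Nipbl, intron 1, which is 546 bp long. It held 2.75% and 3.54% of the Nipbl intron counts in Tdrd6+/- and 4.07% and 4.87% in Tdrd6-/-, with 354 and 408 against 446 and 343 counts (log2 0.53, SE 0.195, DESeq2 adjusted p = 0.195). Both Tdrd6-/- samples lay above both controls. Set against its own junction the intron gave no such order, with 157 and 106 intronic counts per 100 counts of the junction from exon 46 to exon 47 in Tdrd6+/- and 110 and 111 in Tdrd6-/-.

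The study assayed a Nipbl intron by RT-qPCR in other RNA, and the intron of the same number was read here. Whether the study numbers introns along the chromosome or along the transcript is not given, so the match is uncertain. Nipbl intron 34 of the deposited counts is 82 bp long. It had 69 and 64 counts in Tdrd6+/- and 79 and 44 in Tdrd6-/-, or 0.535% and 0.555% against 0.720% and 0.624% of the intron counts of the gene. The Tdrd6-/- shares were higher (log2 0.31, SE 0.298, unadjusted p = 0.296 by the likelihood ratio test in DESeq2). With a mean of 64 counts the intron was under the filter, and its difference was not detectable at this depth. This intron was thus not called. It cannot be set against the study's assay while the match is uncertain. Per 100 counts of its own junction, from exon 13 to exon 14, it had 15 and 13.3 counts in Tdrd6+/- and 17.9 and 13.1 in Tdrd6-/-, which overlapped. Per kb it had the most counts of any intron of the gene, at 3122 over all samples beside a median of 355. How fragments that only partly overlap an intron were counted is not known. The value of so short an intron is therefore not directly comparable with those of longer ones.

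The 70022 bp first intron of Nipbl, intron 46, had the most intron counts of the gene in every sample. It held 43.8% and 42.5% of the Nipbl intron counts in Tdrd6+/- and 39.9% and 33.3% in Tdrd6-/- (5644 and 4896 against 4373 and 2349 counts). The log2 difference was -0.40 (SE 0.165, DESeq2 adjusted p = 0.301), and without the first Tdrd6-/- sample it was -0.60 and called (adjusted p = 0.0562). The intron with the most counts had a negative log2 difference in each of the 8 members with at least 5 introns of 50 or more counts (median -0.22), where this held for 62.1% of the 6229 genes so defined (median -0.07). None of these 8 was called. Examples are intron 4 of Stag3 (17.7% and 13.4% against 12.9% and 10.95% of the gene's intron counts, log2 -0.44, SE 0.192), intron 30 of Pds5a (26.9% and 28.4% against 26.2% and 21.5%) and intron 2 of Smc3 (30.8% and 29.0% against 28.9% and 24.5%). Intronic counts as a whole were scarcest in the second Tdrd6-/- sample, and its part in these values was not tested.

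The introns with the smallest p in Smc1b and Pds5b pointed the other way. Intron 12 of Smc1b (chr15:85097622-85097895), 274 bp long, had 40 and 44 counts in Tdrd6+/- and 94 and 78 in Tdrd6-/-, or 2.41% and 2.62% against 4.20% and 4.31% of the intron counts of the gene (log2 0.78, SE 0.303). Intron 27 of Pds5b had 0.798% and 0.875% against 1.48% and 1.75% (log2 0.96, SE 0.375). In both the genotypes were separated, and both lay under the filter on the mean, with unadjusted p-values of 0.00938 and 0.0106 from the likelihood ratio test in DESeq2. Intron 5 of Stag1 had 7.64% and 7.44% against 5.77% and 5.62% (log2 -0.43, SE 0.206, DESeq2 adjusted p = 0.424).

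Exon segments and junctions gave no call either. Of 642 with at least 10 counts, 461 were tested and 0 called, where 0.221% of all 147710 tested were called by the same model in DESeq2. An unadjusted p under 0.05 was reached by 23 of the 461, and by 4.36% of all tested. Nipbl held 19 of the 23. In edgeR's usage test 0 of the 642 were called, with 8 under that p. In the whole series it called only 69 of 322061, with 7212 under that p, so its 0 among the members says little. In the 14 exons from exon 17 to exon 30, a stretch set after the values were seen, the share of the summed exon counts of Nipbl was 33.0% and 30.97% in Tdrd6+/- and 28.3% and 28.0% in Tdrd6-/-. In the last 5 exons it was 11.7% and 12.3% against 13.9% and 13.8%. The last exon had the smallest p of all (4.33% and 4.27% against 5.16% and 5.20% of the gene count, log2 0.28, SE 0.0991, DESeq2 adjusted p = 0.530), and the junction that leads into it had a log2 difference of 0.40 (SE 0.157, DESeq2 adjusted p = 0.752). These exons share fragments and are not independent.

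In the other members the feature with the smallest p also fell short. Exon 10 of Rad21, 172 bp long, had 10.4% and 11.1% of the gene count in Tdrd6+/- and 8.49% and 6.43% in Tdrd6-/- (log2 -0.57, SE 0.278). A junction of Stag1 had 2.56% and 2.95% against 4.29% and 3.32% (log2 0.48, SE 0.229). The DESeq2 adjusted p was 1 in both. For Smc1b, exon 8 had 6.91% and 7.01% against 7.84% and 7.87% (log2 0.19, SE 0.118). For Stag3, the segment with the smallest p held 1.19% and 0.807% against 0.769% and 0.731%. Of the 300 annotated junctions, 277 had a count in all 4 samples and 8 had none in any, of which 5 were in Stag1, and 1 each in Rad21l, Stag3 and Pds5b.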

How the data were processed

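Per the labels and the article, total RNA of hCD4+ cells was depleted of ribosomal RNA, made into strand-specific libraries and sequenced in pairs. The authors made the reads with bcl2fastq 1.8.4, aligned them to mm10 with GSNAP and annotated them with Ensembl release 75. The deposited counts are whole, unnormalized fragment counts per gene, exon segment, junction and intron. The counting program is not given in the sources used here. Gene identifiers were matched to symbols, lengths and positions in GENCODE M21. Introns and segments of Rec8, Pds5b and Stag1 could not be placed and carry file numbers only, and rows of merged overlapping genes were not used. The members and lists were chosen with earlier results of these data known.

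Genes were tested with edgeR 4.0.16 in R 4.3.3 (TMM, filterByExpr, quasi-likelihood test). Because DEXSeq and JunctionSeq were not installed, usage of features with at least 10 counts was tested against the rest of the gene by a likelihood ratio test in DESeq2 1.42.0, with the dispersion trend on the mean of the feature, independent filtering and Benjamini-Hochberg adjustment at 0.1. Intronic against exonic counts of a gene were tested as an interaction in edgeR. Named features were those with the smallest p, the most counts or the greatest length in each member, those called, and Nipbl intron 34. Each test was first tested on simulated data with known changes and a single dispersion. Of log2 changes of 1, it recovered 58.2% for gene expression and 34.3% for intron usage. For exon segments and junctions this was 38.8%, and for intronic against exonic counts 20.9%. Of log2 changes of 0.5, between 1.49% and 5.97% were recovered, and of log2 changes of 2 at least 97%. Changes of 0.5 to 1 could thus be missed. Replicates differed by more than sampling noise (chi-square over its degrees of freedom 20.3 for the Tdrd6+/- and 17.8 for the Tdrd6-/- samples). Alternatives were other tests, scalings, filters and thresholds, the replicate number as a block, and leaving out each sample.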

Additional observations from a re-analysis of the deposited data

How the results depend on the processing

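Of the 10 members, 2 were called for gene expression, and this was also 2 with median-of-ratios scaling and at a false discovery rate of 0.05, 3 with DESeq2, 0 with no filter on low counts (where 75 of 26309 genes were called) and between 0 and 3 when a sample was left out. Intron usage gave 0 calls under each alternative but the samples left out (0 to 1), and exon and junction usage gave 0 calls under all of them. The intronic to exonic ratio gave 1 call, and 0 at a false discovery rate of 0.05, with DESeq2 and with the exonic scaling, and 0 to 1 when a sample was left out. The difference in the meiotic to general log2 ratio of 0.46 was between 0.28 and 0.65 when a sample was left out. With the same replicate number as a block, 4 members were called for gene expression (Smc1b and Nipbl in addition) and 0 for the intronic to exonic ratio. Deviations of samples with the same number correlated at -0.098 over genes and 0.047 over introns, so the numbers were not taken as pairs.

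Signs that turned were all of differences that were not called. With the exonic scaling, the log2 ratio was -0.23 for Rec8, -0.22 for Stag3, -0.056 for Smc3 and -0.16 for Pds5b. Rad21 intron 11, set against the exonic count, was at 0.22. With a sample left out, gene expression ranged from -0.10 to 0.013 for Stag3 and from -0.031 to 0.36 for Smc3, the ratio of Smc1b to Smc1a from -0.15 to 0.13, and that of Stag3 to Stag1 from -0.023 to 0.24. For the intronic to exonic ratio the ranges were -0.14 to 0.25 for Rec8, -0.25 to 0.14 for Smc1b, -0.084 to 0.23 for Stag3, -0.25 to 0.15 for Nipbl, -0.23 to 0.027 for Pds5a, -0.018 to 0.26 for Pds5b and -0.14 to 0.064 for Stag1. The cause was not tested. Depth was least for Rad21l (20 to 58 counts per sample), none of whose introns passed the filter on the mean.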
